A study of Mus musculus with 6 samples.

Results

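The ADAM and ADAMTS genes encode metalloproteases that cut proteins at the cell surface and in the extracellular matrix. They were taken as every gene whose symbol is Adam, Adamts or Adamtsl followed by its number, and 42 of the 18182 genes in the files met this rule: 22 ADAM, 16 ADAMTS and 4 ADAMTS-like genes. Most of those that could be tested were higher in cells sorted from tumours grown with bone marrow-derived mesenchymal stem cells (BMSCs). The secreted ADAMTS proteases made up most of the larger rises. Summed markers of stromal cells and leukocytes were also higher there, and their part in these changes was not tested.

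RNA was sequenced from the mouse lung cancer line LLC (Lewis lung carcinoma) carrying red fluorescent protein (RFP). C57BL/6 mice, labelled wild type, received LLC-RFP under the skin either alone (LLC alone, 3 libraries) or together with BMSCs (LLC with BMSCs, 3 libraries), and the RFP-positive cells were sorted from the primary tumours by flow cytometry. The comparison asks how the transcripts of the sorted cells differed with the company of BMSCs. The model is 1 cell line, the purity of the cells rests on the RFP gate, and the source label of the second group names mesenchymal stem cells beside the LLC cells. The study's animal methods give female mice of 6 weeks for tumours of LLC-luciferase cells, and state no age for the mice that carried LLC-RFP. Nothing in the labels says whether the libraries of a group came from separate mice, so that the p-values measure the spread between these libraries, which may be technical.

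ADAM proteases sit in the cell membrane, where several of them release the outer part of growth factors, cytokines, Notch proteins and adhesion molecules, a step called shedding. ADAMTS proteases are secreted, bind the matrix through thrombospondin repeats, and cut proteoglycans, procollagens and other matrix proteins. ADAMTS-like proteins share the binding repeats but lack the protease domain. In tumours these families are known for the control of growth factor supply and for remodelling of the stroma.

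The estimated counts summed to between 33476347 and 46189113 per library, and 3 counts, used here as the floor of detection, stood between 0.0650 and 0.0896 CPM, counts scaled to the library total. This floor covers counting error only. LLC alone replicate 3 stood apart from the other libraries by transcript length. When the tested genes were divided into 5 bins by length, its log2 level deviated from the 6-library mean by a median of 0.31 in the bin of shortest genes and -0.37 in the bin of longest genes. The family is long, with a median length of 4624 bases for the tested members against 2886 bases for all tested genes, and 10 of the tested members lay in the bin of longest genes. There 45.6% of all genes were called higher and 14.4% lower, and values without that library or with the length trend removed are given for the members they bear on most and drawn for the others except Adam19. By a chi-square per gene, LLC alone replicates 1 and 2 (4.69) and LLC with BMSCs replicates 2 and 3 (2.98) were far closer to each other than the other pairs within a group (18.9 to 59.3), so that LLC with BMSCs replicate 1 also stood apart. Markers of other cells also differed between the groups, and their part in the changes given below was not tested. The summed level of 14 BMSC and fibroblast markers was 442 to 578 CPM in LLC alone and 1222 to 1318 CPM in LLC with BMSCs, led by Col3a1 and Col6a3, with Eng, Pdgfra and Pdgfrb also above 29 CPM in every library, while Thy1 and Postn were at or near 0 in both groups. The summed level of 10 neutrophil markers, with Retnlg at 0, was 0.426 to 0.789 CPM and 20.9 to 23.5 CPM. That of 12 macrophage markers was 24.1 to 28.8 CPM and 36.3 to 38.9 CPM, with C1qa, C1qb and C1qc near 0. Of the 9 lymphocyte markers, Cd3d and Ms4a1 were at 0, and the sums were 0.390 to 0.542 CPM and 2.52 to 2.77 CPM. Endothelial and skeletal muscle markers stayed under 7 CPM in every library. The 9 epithelial markers summed to 157 to 177 CPM in LLC alone and 189 to 198 CPM in LLC with BMSCs, nearly all of it Krt8. Krt18 went from a mean of 0.112 to 0.868 CPM, and Epcam, Cdh1, Nkx2-1, Sftpc and Scgb1a1 were at or near 0 in both groups.

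Of the 42 members, 23 passed the filter on low counts and were tested. FPKM, a level per transcript length and per library size, reached a mean of at least 1 for 12 members in LLC alone and 14 in LLC with BMSCs. By edgeR's quasi-likelihood test with Benjamini-Hochberg adjustment over the 13353 tested genes, 15 of the 23 tested members were higher in LLC with BMSCs, 3 were lower and 5 were not called at an adjusted p under 0.05. Over the whole series 62.9% of the tested genes were called, 31.5% higher and 31.3% lower, so that a call alone says little. A log2 fold change of at least 1 was called for 9 members, against 8.65% of all tested genes, and one of -1 or less for 0 members, against 7.17%. The normalized counts of the groups did not overlap for 18 members, 15 higher and 3 lower, against 71.3% of all tested genes, 36.7% higher and 34.6% lower. The median log2 fold change was 0.61 over the tested members and 0.01 over all tested genes. Without the filter on low counts the median was 0.10 over the 42 members and -0.01 over all genes, with 15 members called higher and 4 lower. Adam19 and Adamts5, both among the 9 with a log2 fold change of at least 1, passed the filter through the LLC with BMSCs libraries alone. Adam33 passed through the LLC alone libraries alone. The counts over tested members therefore describe those members and are no evidence about the 42.

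Summed over the 42 members, the 3 libraries of LLC alone reached 165.7, 168.2 and 142.9 FPKM and the 3 of LLC with BMSCs 211.2, 206.8 and 207.0 FPKM. The lowest library with BMSCs lay above the highest library without them. The ADAM sheddases supplied most of the total, at 123.3 ± 9.52 FPKM without BMSCs and 150.2 ± 0.714 FPKM with them (SD, n = 3 for each value). The ADAMTS proteases that cut aggrecan and versican went from 11.3 ± 1.33 to 23.9 ± 1.19 FPKM, those that trim procollagen from 3.16 ± 0.427 to 8.20 ± 0.0513 FPKM, and those of other substrates from 4.40 ± 0.363 to 12.7 ± 0.267 FPKM. ADAMTS-like genes went the other way, from 15.8 ± 2.26 to 12.5 ± 0.626 FPKM, and the groups were barely apart, since the highest library with BMSCs was at 13.03 FPKM and the lowest without at 13.15 FPKM. These sums are descriptions and carry no test.

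**Figure D1:**
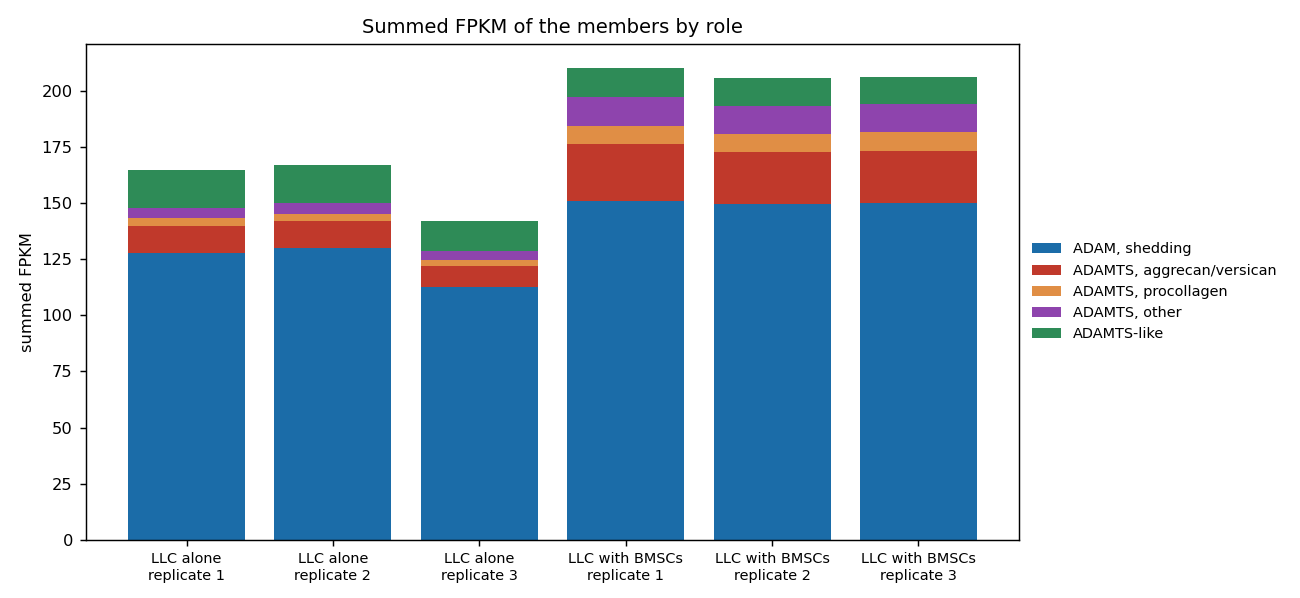
Summed FPKM of the members in each library (vertical axis, from 0), stacked by the role of the protease; the nervous system and testis ADAMs, with sums of at most 0.22 and 0.96 FPKM in a library, are not drawn. Over all members, including those not drawn, the totals are 142.9 to 168.2 FPKM in LLC alone and 206.8 to 211.2 FPKM in LLC with BMSCs. The drawn bars end slightly below these totals, and the ADAMTS layers are thicker in LLC with BMSCs.

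**Figure D2:**
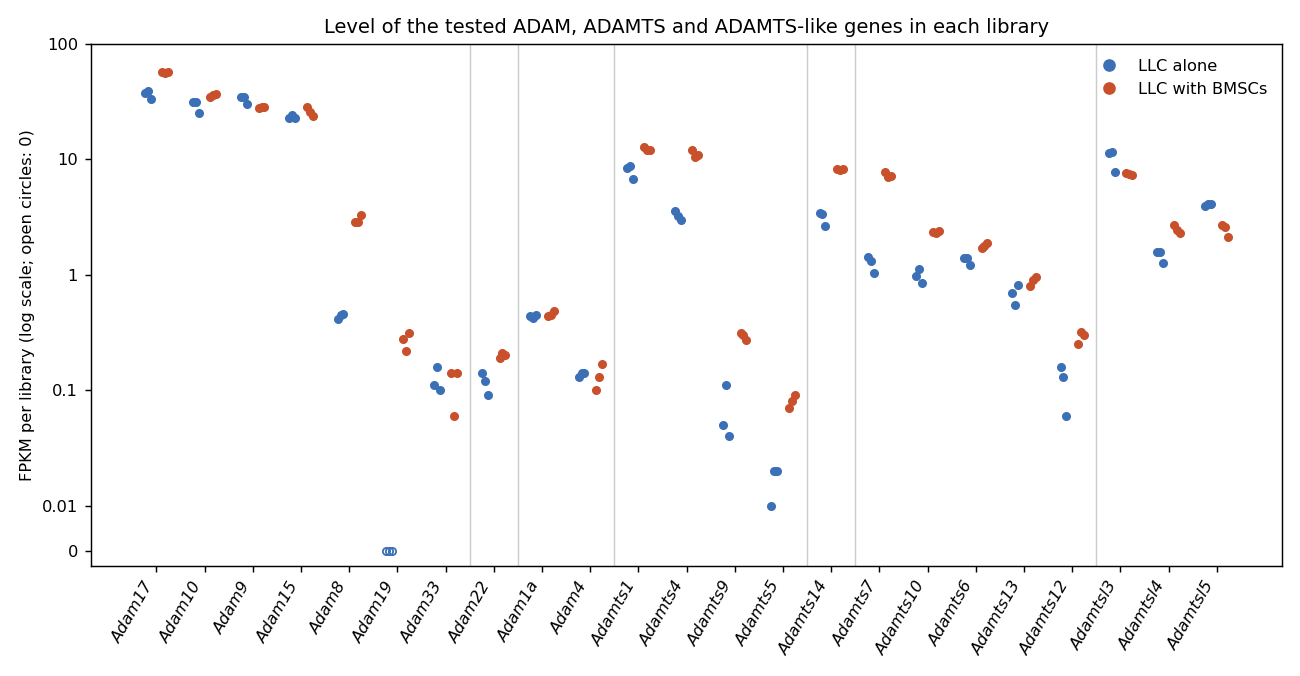
FPKM of each of the 23 tested members in each library, on a log axis with 0 drawn as open circles at the foot; blue points are LLC alone and orange points LLC with BMSCs, and grey lines separate the roles. Adam17, Adam10, Adam9 and Adam15 lie above 20 FPKM in both groups, and Adam19 is at 0 in every LLC alone library.

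Among the sheddases, which had 9 genes in the files, 4 of the 7 tested were higher, 1 was lower and 2 were not called. Over all tested genes 31.5% were higher and 31.3% lower. Adam17, the main sheddase of TNF and of several epidermal growth factor receptor ligands, was the most abundant member in both groups. Its FPKM was 37.9, 38.9 and 33.5 in LLC alone and 56.7, 56.0 and 56.9 in LLC with BMSCs. The groups did not overlap, and the 3 libraries with BMSCs lay within 1 FPKM of each other. The log2 fold change was 0.60 (SE 0.07, edgeR adjusted p = 0.000178), a 1.52-fold rise, and it was 0.47 with the length trend removed. The share of Adam17 in the summed FPKM of the family went from 23.1% to 27.1%. The gene spans chr12:21323509-21373632 on the minus strand (GRCm38), and its exons overlap those of Iah1 on the opposite strand by up to 311 bases. Iah1 itself went from 62.1 to 19.9 FPKM, and since the use of strand in the counting is not stated, reads from this overlap cannot be assigned to either gene. Nearly all of the Adam17 FPKM was given to 1 transcript, NM_009615, with 35.3, 34.9 and 31.2 FPKM in LLC alone and 53.0, 52.3 and 53.2 FPKM in LLC with BMSCs.

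Adam10, the sheddase that opens Notch signalling and releases cadherins and betacellulin, was at 31.4, 31.3 and 25.4 FPKM in LLC alone and 34.9, 36.2 and 37.0 FPKM in LLC with BMSCs. The groups did not overlap, though LLC alone replicate 3 lay well below the other libraries. Adam10 rose by a log2 fold change of 0.27 (SE 0.09, edgeR adjusted p = 0.0259). The call was lost without LLC with BMSCs replicate 1, 2 or 3 (adjusted p between 0.0515 and 0.0839), and the fold change was 0.14 with the length trend removed and 0.10 (adjusted p = 0.102) when LLC alone replicate 3 was left out as well.

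Adam9, a broad sheddase that also binds integrins, was the only sheddase called lower among the 7 tested. Its FPKM was 35.0, 35.1 and 30.0 in LLC alone and 27.8, 28.4 and 28.5 in LLC with BMSCs, without overlap. It fell by 0.26 on the log2 scale (SE 0.07, edgeR adjusted p = 0.0134), and without LLC alone replicate 1 the value was -0.23 with an adjusted p of 0.0541. With the length trend removed it was -0.36. Adam9 supplied 20.99% of the family's FPKM in LLC alone and 13.6% in LLC with BMSCs, so that Adam10 held rank 2 of the family with BMSCs and rank 3 without. Adam15, which carries an integrin-binding disintegrin domain, was at 22.8, 24.0 and 23.0 FPKM in LLC alone and 28.3, 25.9 and 23.6 FPKM in LLC with BMSCs. The groups of Adam15 overlapped, and its log2 fold change of 0.14 (SE 0.08) was not called (edgeR adjusted p = 0.164).

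Adam8 is a sheddase of adhesion molecules that leukocytes carry and some tumours express. It was at 0.410, 0.450 and 0.460 FPKM in LLC alone and 2.87, 2.88 and 3.32 FPKM in LLC with BMSCs. Every library with BMSCs was above 2.8 FPKM and every library without them below 0.5 FPKM. In normalized counts Adam8 went from 58.4 ± 3.59 to 393 ± 32.5 (SD, n = 3 each), a 6.74-fold rise with a log2 fold change of 2.75 (SE 0.11, edgeR adjusted p = 1.12e-06). It held rank 15 of the family without BMSCs and rank 10 with them. Part of the leukocyte markers moved with it, namely 6 of 6 tested neutrophil markers and 6 of 8 tested macrophage markers. Of all tested genes 31.5% were higher. However, S100a8, S100a9, Ngp, Mpo, Csf3r, Adgre1, Itgam, Mrc1 and Ptprc passed the filter through the LLC with BMSCs libraries alone, which favoured a call of higher. The marker counts therefore describe the listed markers only. Itgam, an integrin chain of myeloid cells, went from a mean of 0.0361 to 5.38 CPM, Ptprc, the common leukocyte antigen CD45, from 0.159 to 2.35 CPM, and the neutrophil genes S100a8 and S100a9 from 0.0271 to 6.47 CPM and from 0.00996 to 10.4 CPM. Other markers of the same cells were not called higher: the macrophage gene Cd68 was the 1 called lower, from 6.62 to 3.61 CPM, Cd14 was at 15.3 and 16.2 CPM, and the neutrophil antigen Ly6g was near the floor at 0.0660 and 0.0376 CPM. Their part in the Adam8 result was not tested, and in these bulk samples fewer cells of a type and less RNA per cell cannot be told apart.

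Adam19, a sheddase of neuregulins known in the heart and in mesenchymal cells, had estimated counts of 0, 0 and 0 in LLC alone and 76, 59 and 84 in LLC with BMSCs. Against the floor of 3 counts per library it was at least 22.3-fold higher in LLC with BMSCs (edgeR adjusted p = 5.91e-05). Even so its level was only 0.280, 0.220 and 0.310 FPKM there. Adam19 passed the filter through the LLC with BMSCs libraries alone and, without counts in LLC alone, could only be called higher. Adam33, an ADAM of smooth muscle and mesenchymal cells, had estimated counts of 16, 16 and 15 in LLC alone and 19, 8 and 19 in LLC with BMSCs. It was not called, with a log2 fold change of -0.13 (SE 0.36, edgeR adjusted p = 0.758). The other two sheddases, Adam12 and Adam28, did not pass the filter, with at most 5 and 6.72 estimated counts in a library.

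The promoters of Adam8 and Adam19, the ADAM genes with the largest rises, and of Adamts14 are shown. Adamts14 is the most abundant ADAMTS with a log2 fold change over 1 that has an entry. The windows lie before annotated starts, and which start the transcripts used was not tested. They are the 250 bases before the start, from RefSeq (GRCm38.p6), 5′ to 3′ on the strand of the gene, with the letters TGANTCA of the AP-1 motif in capitals where they occur. The windows are chr7:139992563-139992812 (minus strand) for Adam8 and chr10:61273420-61273669 (minus strand) for Adamts14, where the last bases reach into the gene as GENCODE annotates it. For Adam19 the window is chr11:46055734-46055983 (plus strand), at the second of 3 annotated starts. It is the only window of Adam19 that holds the AP-1 letters.

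Adam8: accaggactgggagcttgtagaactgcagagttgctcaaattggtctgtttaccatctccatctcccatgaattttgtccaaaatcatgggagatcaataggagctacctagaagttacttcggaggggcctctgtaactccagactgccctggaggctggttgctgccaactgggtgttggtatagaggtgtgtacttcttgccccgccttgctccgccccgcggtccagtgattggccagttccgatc
Adam19: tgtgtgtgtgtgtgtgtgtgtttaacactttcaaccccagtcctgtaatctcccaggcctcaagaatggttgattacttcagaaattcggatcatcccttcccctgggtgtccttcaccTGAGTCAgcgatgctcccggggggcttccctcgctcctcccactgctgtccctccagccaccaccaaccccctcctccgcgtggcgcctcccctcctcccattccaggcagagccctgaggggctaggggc
Adamts14: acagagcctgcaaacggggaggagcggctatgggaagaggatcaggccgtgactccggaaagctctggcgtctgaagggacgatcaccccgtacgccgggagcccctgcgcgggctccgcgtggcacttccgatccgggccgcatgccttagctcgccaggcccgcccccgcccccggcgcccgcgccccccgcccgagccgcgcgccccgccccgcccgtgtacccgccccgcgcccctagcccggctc

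In all, 22 members had a window in the RefSeq table, and the 15 tested ones among them had 17 windows. The STAT motif TTCNNNGAA, searched on both strands because the study concerned STAT3, was in 0 of the 17 windows, against 7.02% of the 32851 windows of all genes. The AP-1 motif TGANTCA, which reads the same way on both strands, was in 1 of the 17, that of Adam19 printed above at position -131 from the start, against 6.75% of all windows. The interferon-stimulated response motif, GAAA and GAAA separated by 2 bases on either strand, was in 0 of the 17, against 2.98%. These matches describe letters in these windows only.

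The remaining ADAM genes were low. Adam22, an ADAM without a working catalytic site that serves as a receptor of LGI1 in neurons, had estimated counts of 59, 36 and 36 in LLC alone and 76, 84 and 81 in LLC with BMSCs. The groups did not overlap, and the log2 fold change of Adam22 was 0.78 (SE 0.19, edgeR adjusted p = 0.00827), 0.60 without LLC alone replicate 3 and 0.52 with the length trend removed. Adam11 and Adam23, of the same kind, did not pass the filter. Of 10 ADAM genes known from testis and sperm, 2 were tested and neither was called. Adam1a had between 42.53 and 66 estimated counts in the 6 libraries and a log2 fold change of 0.05 (SE 0.13, edgeR adjusted p = 0.777). Adam4 had between 11.39 and 18.45 and a log2 fold change of -0.06 (SE 0.26, edgeR adjusted p = 0.869). Adam1a shares reads with its neighbour Adam1b in LLC alone replicates 1 and 2, where both had fractional counts, and its exons overlap other genes on its own strand, so its values are uncertain. Adam1b, Adam2, Adam3, Adam5, Adam7, Adam21, Adam30 and Adam32 were not tested and had at most 12 estimated counts in a library, reached by Adam21. Adam3, Adam5, Adam32 and Adam9 lie next to each other on chromosome 8, with no other protein-coding gene between them, and Adam9 alone of these 4 was above the filter.

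The ADAMTS proteases that cut aggrecan and versican had 6 members in the files, and the 4 tested were higher, where 31.5% of all tested genes were higher. Adamts5 among them passed the filter through the LLC with BMSCs libraries alone. Adamts4, an aggrecanase that inflammatory cytokines are known to raise, was at 3.58, 3.24 and 2.99 FPKM in LLC alone and 12.1, 10.5 and 10.9 FPKM in LLC with BMSCs. The groups were far apart. Adamts4 was 3.37-fold higher, with a log2 fold change of 1.75 (SE 0.09, edgeR adjusted p = 3.37e-06), and 1.68 with the length trend removed. Adamts4 lies at chr1:171250421-171260637 on the plus strand and has 1 transcript in the files.

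Adamts1, a versican-cutting protease also known to restrain blood vessel growth, was the most abundant ADAMTS. Its FPKM was 8.41, 8.70 and 6.72 in LLC alone and 12.8, 12.2 and 12.1 in LLC with BMSCs, without overlap. Adamts1 rose by a log2 fold change of 0.61 (SE 0.10, edgeR adjusted p = 0.000959), or 0.51 without LLC alone replicate 3 and 0.47 with the length trend removed. Its neighbour on chromosome 16, Adamts5, the principal aggrecanase of mouse cartilage, lies 53060 bases away. Adamts5 had estimated counts of 2, 5 and 7 in LLC alone and 26, 27 and 30 in LLC with BMSCs. It was 5.42-fold higher in the fit, with a log2 fold change of 2.44 (SE 0.36, edgeR adjusted p = 0.000636). Its level was only 0.0700 to 0.0900 FPKM with BMSCs, and it passed the filter through those libraries alone. Adamts9, a versicanase that also acts in the secretory pathway, had estimated counts of 15, 23 and 11 in LLC alone and 83, 80 and 70 in LLC with BMSCs. The groups did not overlap, and the log2 fold change of Adamts9 was 2.12 (SE 0.31, edgeR adjusted p = 0.000681), 1.84 without LLC alone replicate 3 and 1.92 with the length trend removed. Up to 1215 bases of its exons are shared with the opposite-strand gene A730049H05Rik. Adamts8 and Adamts15 were not tested, with at most 3 and 1 estimated counts in a library.

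Adamts14, which trims the amino end of fibrillar procollagens, was at 3.44, 3.35 and 2.66 FPKM in LLC alone and 8.18, 8.14 and 8.23 FPKM in LLC with BMSCs. The 3 libraries with BMSCs were nearly equal and all above the others. Its fold change was 2.57, with a log2 fold change of 1.36 (SE 0.10, edgeR adjusted p = 1.60e-05), and 1.19 with the length trend removed. The other procollagen N-propeptidases, Adamts2 and Adamts3, did not pass the filter, with at most 10.53 and 2 estimated counts in a library.

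Adamts7, a protease of cartilage oligomeric matrix protein known from vascular smooth muscle, was among the ADAMTS genes with the largest fitted changes, close to Adamts5, a gene of far lower level that had the larger one without LLC alone replicate 3 (2.77). Its FPKM was 1.43, 1.31 and 1.03 in LLC alone and 7.74, 7.08 and 7.20 in LLC with BMSCs. Every library with BMSCs lay more than 5 FPKM above every library without. Adamts7 was 5.72-fold higher, with a log2 fold change of 2.52 (SE 0.12, edgeR adjusted p = 2.12e-06), 2.33 with the length trend removed and 2.39 without LLC alone replicate 3. It lies at chr9:90163069-90208071 on the plus strand, and up to 122 bases of an exon overlap Tbc1d2b on the opposite strand, which went from 1.22 to 1.95 FPKM. The Adamts7 reads were divided among 5 transcripts, of which NM_001311115 was at 0.220, 0.390 and 0.110 FPKM in LLC alone and 3.32, 2.52 and 2.67 FPKM in LLC with BMSCs. NM_001326351 was at 0.610, 0.310 and 0.720 FPKM and at 2.73, 2.19 and 2.04 FPKM. Each of the 5 had a higher mean in LLC with BMSCs.

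Adamts12, the relative of Adamts7 with which it shares this substrate, had estimated counts of 47, 26 and 18 in LLC alone and 69, 86 and 80 in LLC with BMSCs. The groups did not overlap, and the log2 fold change of Adamts12 was 1.27 (SE 0.30, edgeR adjusted p = 0.00667), 0.95 without LLC alone replicate 3 and 1.07 with the length trend removed. Adamts10, a protease of fibrillin microfibrils, was at 0.980, 1.12 and 0.850 FPKM in LLC alone and 2.35, 2.30 and 2.41 FPKM in LLC with BMSCs. It was 2.43-fold higher (log2 fold change 1.28, SE 0.10, edgeR adjusted p = 3.25e-05). Adamts6, its closest relative, was at 1.40, 1.41 and 1.22 FPKM and at 1.71, 1.76 and 1.87 FPKM. Adamts6 rose by a log2 fold change of 0.39 (SE 0.08, edgeR adjusted p = 0.00491), and the call was lost with the length trend removed, at 0.16 and an adjusted p of 0.0777.

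Adamts13, the protease of von Willebrand factor, was at 0.690, 0.550 and 0.810 FPKM in LLC alone and 0.80, 0.90 and 0.96 FPKM in LLC with BMSCs. The groups of Adamts13 overlapped, and its log2 fold change of 0.35 (SE 0.16) was not called (edgeR adjusted p = 0.0931). Without LLC alone replicate 3 the log2 fold change was 0.49 and the adjusted p 0.0197. Its counts were fractional in 6 of 6 libraries, which happens where reads are shared between genes or transcripts. Adamts16 and Adamts17 were not tested, with at most 2 and 8 estimated counts in a library.

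**Figure D3:**
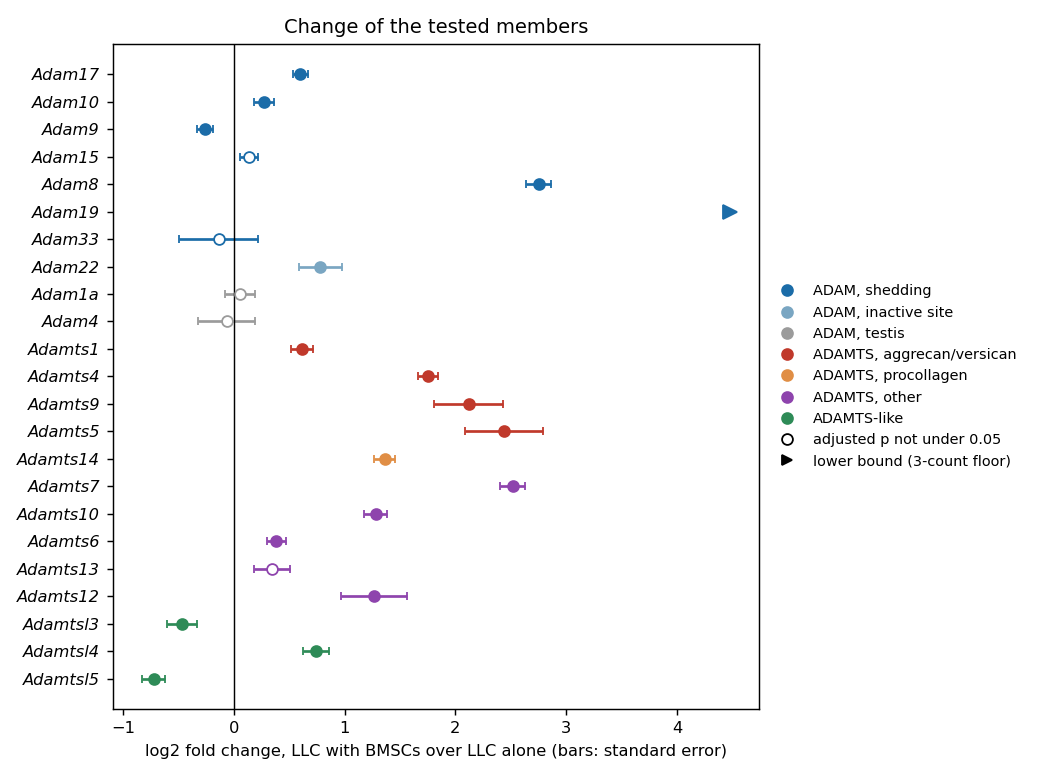
Log2 fold change of the 23 tested members, LLC with BMSCs over LLC alone (horizontal axis, bars are the standard error), coloured by role; open points did not pass an adjusted p of 0.05 and the triangle for Adam19 is a lower bound. Of the 10 ADAMTS genes 9 are filled and to the right of 0, while Adam9, Adamtsl3 and Adamtsl5 are filled and to the left.

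ADAMTS-like genes gave 2 of the 3 members called lower. Adamtsl5, a microfibril-binding relative without protease domain, was at 3.97, 4.07 and 4.09 FPKM in LLC alone and 2.70, 2.60 and 2.12 FPKM in LLC with BMSCs. The groups were well apart, with a log2 fold change of -0.72 (SE 0.10, edgeR adjusted p = 0.0006), that is 1.65-fold higher in LLC alone. Adamtsl3 was at 11.3, 11.6 and 7.77 FPKM in LLC alone and 7.59, 7.51 and 7.37 FPKM in LLC with BMSCs. Here LLC alone replicate 3 was close to the libraries with BMSCs. The log2 fold change of Adamtsl3 was -0.47 (SE 0.14, edgeR adjusted p = 0.0189). The call was lost when any library except LLC alone replicate 3 was left out, with the lowest size at -0.37 without LLC alone replicate 2, and the fold change was -0.69 with the length trend removed. Without LLC alone replicate 1 the count of members called lower was 1, in place of 3.

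Adamtsl4, which binds fibrillin and is known for holding the lens in place, went the other way. It was at 1.59, 1.56 and 1.26 FPKM in LLC alone and 2.71, 2.45 and 2.29 FPKM in LLC with BMSCs. The groups did not overlap, and its fold change was 1.67, with a log2 fold change of 0.74 (SE 0.12, edgeR adjusted p = 0.000964). Adamtsl2 was not tested, with at most 5 estimated counts in a library.

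With the length trend removed, 14 of the 23 tested members were higher and 3 lower, and their median log2 fold change was 0.47, while 35.0% of all tested genes were called higher and 34.7% lower. Without LLC alone replicate 3, 16 members were higher and 3 lower, and without LLC with BMSCs replicate 1, 14 were higher and 2 lower. With the length trend removed and LLC alone replicate 3 left out, 15 were higher and 3 lower, a combination chosen after the data were seen.

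**Figure D4:**
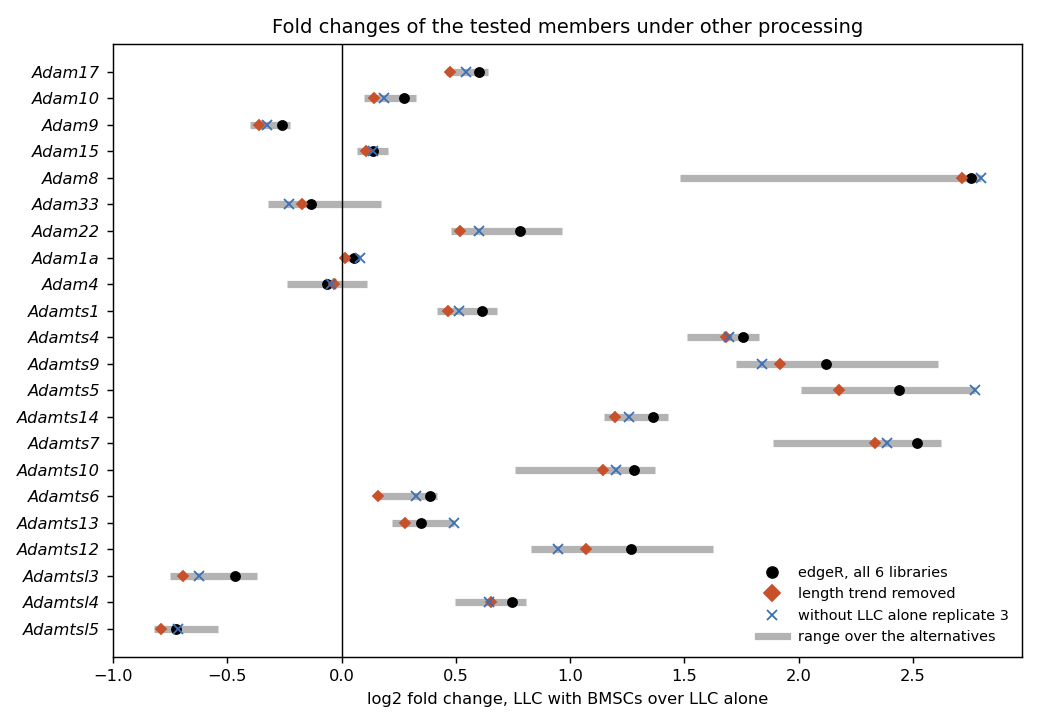
Log2 fold change of the tested members other than Adam19 (horizontal axis) with all 6 libraries (black points), with the length trend removed (orange diamonds) and without LLC alone replicate 3 (blue crosses); grey bars span the alternatives. Adam8 spans 1.48 to 2.80 and Adamts7 1.89 to 2.62, while the bars of Adam33 and Adam4 cross 0.

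The proteases depend on partners that carry, activate or inhibit them, and of a list of 73 such genes and substrates the files held 70, and 58 passed the filter. Among them 40 were higher in LLC with BMSCs, 5 were lower and 13 were not called, with a median log2 fold change of 0.66. Of all tested genes 31.5% were higher and 31.3% lower. Cdh2, Tnf, Timp3 and Col1a1 had at most 4 estimated counts in an LLC alone library, Dcn had 8, 8 and 8, and Reck 15, 5 and 3. All of these genes passed the filter through the LLC with BMSCs libraries alone, which favoured a call of higher. The lists were also chosen with earlier results of these data known. The counts, here and by list below, therefore describe the listed genes only. The iRhoms bring ADAM17 to the cell surface. Rhbdf1 (iRhom1) was at 10.6, 10.5 and 10.7 FPKM in LLC alone and 20.8, 20.1 and 19.3 FPKM in LLC with BMSCs. It was higher in every library with BMSCs, with a log2 fold change of 0.90 (SE 0.06, edgeR adjusted p = 9.03e-06). Frmd8, which stabilises the iRhom complex, rose by a log2 fold change of 0.30 (SE 0.06, edgeR adjusted p = 0.00429). Rhbdf2 (iRhom2) was at 5.76 FPKM without BMSCs and 6.85 FPKM with them on average, with a log2 fold change of 0.23 (SE 0.07, edgeR adjusted p = 0.0193). The Rhbdf2 call was lost without LLC with BMSCs replicate 1 or 3, with an adjusted p of up to 0.0626, and without LLC alone replicate 3 with the length trend removed (0.13, adjusted p = 0.0539).

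The TspanC8 tetraspanins, which escort ADAM10 and help to set its substrates, were not called. The log2 fold changes were 0.15 for Tspan5 (SE 0.09), 0.12 for Tspan14 (SE 0.06), 0.12 for Tspan17 (SE 0.07) and -0.04 for Tspan33 (SE 0.17), with edgeR adjusted p values between 0.120 and 0.846. Tspan14 and Tspan17 were called higher with the length trend removed, and Tspan17 also without LLC alone replicate 3. Tspan10 and Tspan15 did not pass the filter.

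Convertases cut the propeptide that keeps the proteases inactive. Furin was at 20.3, 20.5 and 17.2 FPKM in LLC alone and 27.4, 26.6 and 26.0 FPKM in LLC with BMSCs, with a log2 fold change of 0.44 (SE 0.08, edgeR adjusted p = 0.00172). Pcsk6 was lower, at 4.66 FPKM without BMSCs and 3.21 FPKM with them, with a log2 fold change of -0.56 (SE 0.08, edgeR adjusted p = 0.000649). Pcsk7 was not called, at 0.14 (SE 0.09, edgeR adjusted p = 0.197).

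Of the 5 tested inhibitors 2 were higher, 1 was lower and 2 were not called, where 31.5% of all tested genes were higher. The 2 higher ones, Timp3 and Reck, passed the filter through the LLC with BMSCs libraries alone. Timp2, an inhibitor mainly of matrix metalloproteinases, was at 87.0, 84.8 and 85.3 FPKM in LLC alone and 49.6, 45.9 and 46.4 FPKM in LLC with BMSCs. It fell by 0.88 on the log2 scale (SE 0.06, edgeR adjusted p = 1.21e-05). Timp3, the inhibitor that acts on ADAM17 and on the aggrecanases, had estimated counts of 0, 1 and 4 in LLC alone and 81, 71 and 70 in LLC with BMSCs, with an edgeR adjusted p of 3.74e-05. Its level with BMSCs was 0.390, 0.350 and 0.350 FPKM, far under that of Timp2. Timp1, an inhibitor of ADAM10, was at 69.4, 70.2 and 85.5 FPKM in LLC alone and 84.4, 89.3 and 84.5 FPKM in LLC with BMSCs. The groups of Timp1 overlapped through LLC alone replicate 3, and its log2 fold change of 0.18 (SE 0.09) was not called (edgeR adjusted p = 0.118). Without that library it was called higher, as it was with the length trend removed, and its log2 fold change was at most 0.47 under any alternative run. Reck, a membrane-anchored inhibitor, had estimated counts of 15, 5 and 3 in LLC alone and 28, 18 and 17 in LLC with BMSCs. Its log2 fold change of 1.35 (SE 0.48, edgeR adjusted p = 0.0392) was not called once LLC alone replicate 2 or 3 or any library with BMSCs was left out, with adjusted p values up to 0.134 over the alternatives. Papln was not called (0.21, SE 0.52, edgeR adjusted p = 0.737), and Timp4 was not tested.

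Of 28 tested substrates of the ADAM sheddases, 23 were higher, 3 were lower and 2 were not called, where 31.5% of all tested genes were higher and 31.3% lower. The vascular adhesion molecule Vcam1 was at 1.94, 2.13 and 2.22 FPKM in LLC alone and 12.9, 14.1 and 13.7 FPKM in LLC with BMSCs, with a log2 fold change of 2.67 (SE 0.07, edgeR adjusted p = 2.43e-07). The adhesion molecule Alcam (1.34), the Notch ligand Jag1 (1.29), the chemokines Cxcl16 (1.17) and Cx3cl1 (1.06), the receptor Met (1.08) and the amyloid precursor App (1.03) also rose by at least 1 on the log2 scale. Tnf, the cytokine for which ADAM17 is named, had estimated counts of 2, 0 and 0 in LLC alone and was at least 26.5-fold higher in LLC with BMSCs, where it was at 1.39, 1.31 and 1.04 FPKM. Cdh2, N-cadherin, was at 0 in every LLC alone library and at least 13.9-fold higher with BMSCs. The leukocyte and stromal marker lists given above moved with both, and their part in these results was not tested. The 3 lower substrates included the growth factor Areg, at 46.6, 44.6 and 49.6 FPKM in LLC alone and 21.7, 22.4 and 23.3 FPKM in LLC with BMSCs. Areg fell by 1.09 on the log2 scale (SE 0.06, edgeR adjusted p = 6.85e-06). The Notch ligand Dll1 was lower with a log2 fold change of -1.41 (SE 0.20, edgeR adjusted p = 0.000506).

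Of 15 tested substrates of the ADAMTS proteases, 11 were higher, 0 were lower and 4 were not called, against the same 31.5% and 31.3%. Versican (Vcan), the classic substrate, was at 13.3, 13.4 and 10.8 FPKM in LLC alone and 12.1, 11.7 and 11.9 FPKM in LLC with BMSCs. It was not called (log2 fold change 0.07, SE 0.15, edgeR adjusted p = 0.716). The gene is long (8801 bases), and LLC alone replicate 3 lay below every library with BMSCs, while LLC alone replicates 1 and 2 lay above them. Values of Vcan without that replicate 3 or with the length trend removed were not examined. Aggrecan (Acan) did not pass the filter. Procollagen genes were higher, with Col3a1 at 43.1, 43.6 and 36.8 FPKM in LLC alone and 101.7, 99.4 and 99.0 FPKM in LLC with BMSCs (log2 fold change 1.26, SE 0.08, edgeR adjusted p = 7.56e-06), and Col1a2 at a log2 fold change of 1.54. Col1a1 had estimated counts of 2, 4 and 4 in LLC alone and reached 2.24, 1.92 and 1.85 FPKM with BMSCs. The proteoglycans Dcn and Bgn had log2 fold changes of 5.87 and 1.54, with Dcn at 0.110 FPKM on average in LLC alone and 6.31 FPKM with BMSCs. The basement membrane protein Nid1 and the matricellular Thbs1 had log2 fold changes of 1.46 and 1.97, and fibrillin (Fbn1) went from 5.30 to 10.8 FPKM (edgeR adjusted p = 0.00247). Col3a1, Col1a1, Col1a2 and Dcn are also on the list of BMSC and fibroblast markers, all 11 tested members of which were higher. Among these 11, Col1a1, Dcn and Lum passed the filter through the LLC with BMSCs libraries alone. The part of that list in these results was not tested.

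**Figure D5:**
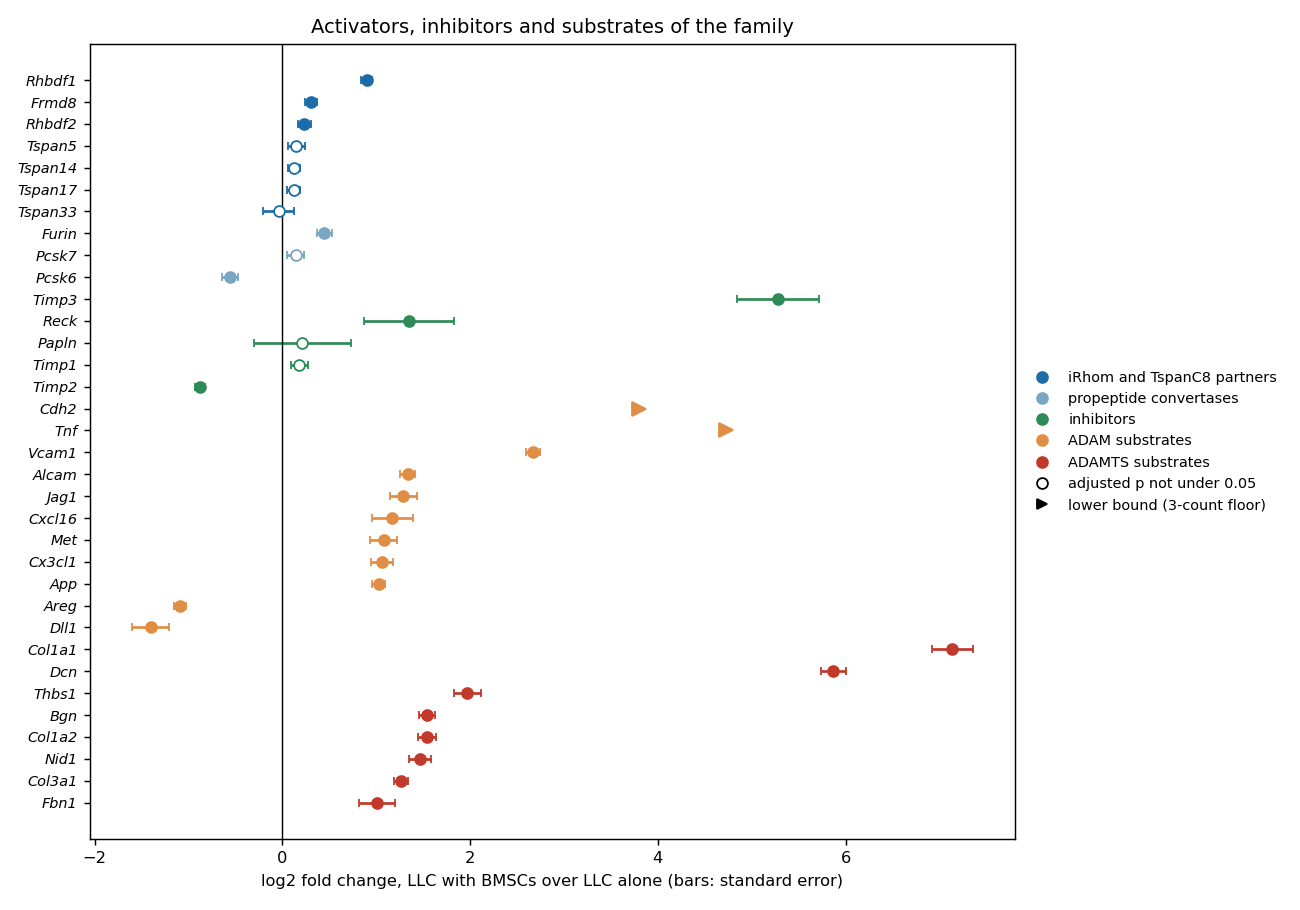
Log2 fold change of the tested activators, convertases and inhibitors and of the substrates that changed by at least 1 on that scale, LLC with BMSCs over LLC alone (horizontal axis, bars are the standard error); open points did not pass an adjusted p of 0.05 and triangles are lower bounds. Timp2, Pcsk6, Areg and Dll1 are the filled points to the left of 0, and Timp3 at 5.28 rests on counts of 0, 1 and 4 in LLC alone.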

How the data were processed

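RNA sequencing of RFP-positive LLC cells sorted from tumours gave 3 LLC alone libraries and 3 LLC with BMSCs libraries, as the sample labels group them. Per the paper's methods, polyadenylated RNA was sequenced on the BGISEQ-500 as paired reads of 100 bp, whereas the labels name Illumina protocols. The submitters' processing notes name HISAT, StringTie, Cufflinks, GATK and build mm8, with no role or order, and the use of strand is not given in the sources used here. The authors deposited estimated counts per gene, which need not be whole (21.9% to 23.2% of the genes listed in a library were not), together with gene lengths in bases. Reads shared between similar genes are divided in such counts. The authors also deposited FPKM per gene and per transcript, scaled by length and library total, so that abundant genes can shift the others.

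After rounding of the estimated counts to integers, R 4.3.3 with edgeR 4.0.16 supplied TMM scaling, its standard low-count filter and its quasi-likelihood test, with Benjamini-Hochberg adjustment over all tested genes and a threshold of 0.05. The methods name no test for these counts. Scripts were tested on simulated data. Bounds on a fold used a floor of 3 counts per library. An exact permutation test of 3 against 3 libraries cannot give a two-sided p below 0.1. Replicates of a group differed by more than sampling noise, the closest pair (LLC with BMSCs replicates 2 and 3) by a median of 1.68 times its expectation, and were counted separately. Positions came from the GENCODE annotation of GRCm38, matched by symbol, and promoters from RefSeq (GRCm38.p6), not from the authors' build. The members and lists were chosen with earlier results of these data known. Every tested member was named with its values, every other member with its highest count or as not tested, every tested activator, convertase and inhibitor, and those called substrates whose log2 fold change reached 1 in size. Vcan and Acan were added after their values were seen. Alternatives were DESeq2 1.42.0, upper-quartile scaling or plain library size in place of TMM, dropping the filter, a minimum of 10 counts in each library, limma 3.58.1 on FPKM with pseudocounts of 1 or 0.1 (log2 scale, 1 FPKM or more in 3 libraries), a loess correction for length, a replicate block, and each library left out.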

Additional observations from a re-analysis of the deposited data

How the results depend on the processing

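The count of members called higher was 15 with DESeq2, with library size without TMM and with upper-quartile scaling, 15 of 42 without a filter, 13 of 20 with at least 10 counts in every library and 10 of 14 with limma on either FPKM scale. Leaving out 1 library at a time gave 14 to 16 members higher and 1 to 3 lower, and the 1 was without LLC alone replicate 1. Partner genes called lower numbered 3 of 43 with limma on log2(FPKM + 1) and on log2(FPKM + 0.1), in place of 5 of 58, with fewer genes tested. The replicate numbers did not pair the libraries, since deviations of same-numbered libraries correlated at 0.08, -0.11 and 0.06. A replicate block gave 15 members higher and 3 lower, with 4161 and 4058 genes called in all, and with the length trend removed 14 and 3. Members called kept their direction under every alternative run, and the calls that were lost (Adam10, Adam9, Adamts6 and Adamtsl3) are given above. Direction was reversed for genes not called in any fit. Adam33, between -0.32 and 0.17 over the left-out libraries, was at 0.026 without LLC alone replicate 2 and 0.17 without LLC with BMSCs replicate 2, and Adam4 at 0.11 without LLC with BMSCs replicate 1. Papln, between -0.24 and 0.84, was at -0.24 without LLC alone replicate 3, and -0.33 with the length trend removed as well, where Pcsk7 was at -0.0059. Tspan33, between -0.13 and 0.10, was at 0.065 with the length trend removed, 0.067 with the replicate block added, 0.10 without LLC alone replicate 3, 0.02 without LLC with BMSCs replicate 3 and 0.16 with that first library left out and length corrected. The causes were not tested. The combination of leaving out LLC alone replicate 3 and removing the length trend was chosen after seeing the data. The lowest fold changes of Adam8, Adamts7, Adamts4 and Adamts10 came from the log2(FPKM + 1) scale, which understates the change of low genes. The depth limits statements on members with few counts: 19 of the 42 were too low to test.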
